A study of Homo sapiens with 8 samples.

Results

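The change that came with 2 circular RNAs (circRNAs) was compared between PC3 and DU145, human prostate cancer cell lines, PC3 derived from a bone metastasis and DU145 from a brain metastasis. The comparison used 8 of the 8 libraries in the study, taken by line, arm and plasmid from the sample titles. In each line, cells transfected with a plasmid carrying circ0003553 (the arm titled RCAN3) or circ0004592 (the arm titled STK3) were set against cells of the same line and arm transfected with a negative control plasmid. This gave 4 differences, 2 in PC3 and 2 in DU145, and the question was which genes moved in opposite directions in the lines and which moved alike. Every library received a plasmid, no untransfected cells were compared, and each arm of a line has 1 control and 1 circRNA library. The spread used in each test is therefore that between the circRNAs within a line, pooled over both lines. A p-value for 1 line thus also rests on the spread in the other line. Since the labels leave it unsaid if arms were grown separately, that spread may be technical.

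Circular RNAs are made when a downstream splice donor joins an upstream acceptor, which leaves a closed molecule without a cap or a tail. Cells sense foreign nucleic acid through receptors such as RIG-I (DDX58) and MDA5 (IFIH1), which lead to interferon, and interferon in turn acts on genes that carry interferon response elements. Epithelial tumour lines differ in how far this pathway is intact. Ribosomal RNA was removed from total RNA and libraries were sequenced as read pairs, so coding and noncoding transcripts were counted alike. A level is given as CPM, the count scaled to a common effective library size, and a difference as log2, the circRNA library minus its control.

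Total counts ran from 33444940 to 49926342 per library. The lines were as labelled: CTNNA1, the alpha-catenin gene, known to be deleted in PC3, was at 3.82 to 4.6 CPM in PC3 and 388.0 to 427.0 CPM in DU145. Of 43 genes detected in PC3 controls and near 0 in DU145 controls, DU145 circRNA libraries held 39 and 16 counts in all, 0.105% and 0.0443% of the PC3 control counts. The reverse, 42 DU145 genes in PC3 circRNA libraries, came to 15 and 20 counts (0.0349% and 0.0558%). The 4 listed leukocyte markers summed to 0.225 to 0.782 CPM over all libraries, and the 4 epithelial markers to 544 to 601 CPM in PC3 and 2880 to 3800 CPM in DU145. RCAN3 counts, which take in linear and circular transcripts, were, in the circ0003553 arm, 34.1 CPM (control) and 43.8 CPM (circRNA) for PC3, with 20.6 and 36.6 CPM for DU145, against 29.8 and 23.4 CPM (PC3) and 18.1 and 19.98 CPM (DU145) in the other arm. STK3 was, in the circ0004592 arm, at 9.22 CPM (control) and 19.3 CPM (circRNA) for PC3, with 25.8 and 33.8 CPM for DU145, against 7.91 and 9.36 CPM (PC3) and 28.4 and 24.5 CPM (DU145) in the other arm. In both lines, the ratio of each gene to its control was higher in the arm of its own circRNA than in the other arm.

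Many genes passed the test in PC3, where the circRNAs moved genes in nearly the same way as each other, and few passed in DU145. Each test looked for a change shared by both circRNAs of a line. A gene moved by 1 of them adds to the spread, so few calls in DU145 do not mean few changes. In bulk RNA, a change in all cells and a change in some of them, such as those that took up the plasmid, cannot be told apart. Of 17869 genes tested with edgeR's quasi-likelihood test, 3709 (20.8%) passed an adjusted p (Benjamini-Hochberg) of 0.05 in PC3, 1569 higher (8.78%) and 2140 lower (12%). In DU145, 191 passed (1.07%), 104 higher (0.582%) and 87 lower (0.487%). The difference between the lines in the circRNA effect, PC3 minus DU145, passed for 2109 genes (11.8%). The effect was higher in PC3 for 1023 (5.72%) and lower for 1086 (6.08%). The mean effect over both lines passed for 2043 genes (11.4%), 1025 higher (5.74%) and 1018 lower (5.70%). With DESeq2 size factors in place of TMM, 1106 line differences were higher in PC3 and 752 lower, so the share that was higher was 59.5% in place of 48.5%. Leaving out any 1 of the 4 PC3 libraries gave 856 to 982 line differences, and leaving out any 1 of the 4 DU145 libraries 3122 to 3404. In these and all later fits, a library left out takes its pair with it, so the effect in that line rests on 1 pair. The spread then comes from the other line, and leaving out the control or the circRNA library of a pair is nearly the same check. Of the 2109, 1788 were also past the threshold in PC3 and not in DU145, 57 in DU145 and not in PC3, 59 in both and 205 in neither.

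Across the 10664 genes with a mean of at least 5 CPM in each line, the 2 PC3 differences had a standard deviation of 0.48 and 0.47 (log2) and correlated at r = 0.930 (Spearman 0.791). The DU145 differences had 0.21 and 0.21 and correlated at r = 0.126 (Spearman 0.054), while the 2 controls of a line differed from each other by 0.13 in PC3 and 0.12 in DU145. Between the lines, the 4 correlations lay between 0.014 and 0.057. These are descriptions across genes of the same 8 libraries, in which genes are not independent replicates. Both differences had the same sign for 80.4% of these genes in PC3 and for 50% in DU145. The sign was opposite between the lines in all 4 differences for 2146 genes and the same in all 4 for 2175. Opposite and like signs were therefore about equally common over all genes.

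**Figure D1:**
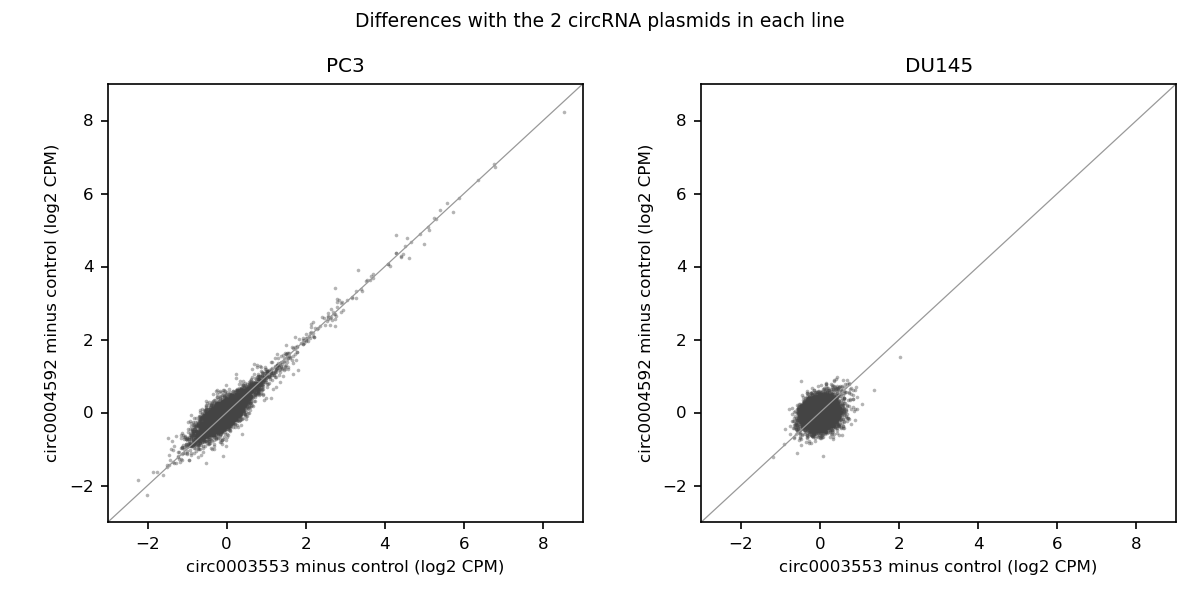
The log2 CPM difference with circ0004592 (vertical axis) against that with circ0003553 (horizontal axis) for the 10664 genes at 5 CPM or more in each line, PC3 on the left and DU145 on the right, 1 point per gene, with the line of equality in grey. PC3 points lie along the line (r = 0.930), and DU145 points form a round cloud near 0 (r = 0.126).

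Genes that moved in opposite directions were few. At a mean of at least 5 CPM in each line, with both PC3 differences past 0.5 (log2) in 1 direction and both DU145 differences past 0.5 in the other, there were 5. PLEKHA4, GBP3 and IFI35 were higher in PC3 with the circRNAs but lower in DU145. NFATC2 and IL1RL1 were lower in PC3 but higher in DU145. All 5 passed for the line difference, where 11.8% of all tested genes did, but they were chosen on those same differences and the calls are no separate support. Just inside the limit stood IFI35 and IL1RL1, whose smallest difference was 0.51, and just outside ODC1 (0.46) and STARD4 (0.45). The limit of 5 CPM left out 7205 tested genes, among them MMP1, which lay below it in PC3. It applied to the mean of the control and circRNA libraries of a line, so a gene can reach it through a rise. Leaving out a DU145 library, which leaves 1 difference to pass there, gave 15 to 22 genes, and leaving out a PC3 library 5 to 10.

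PLEKHA4 (chromosome 19, 48837097 to 48868632 in hg38), an adaptor that binds phosphoinositides at the plasma membrane, had the largest line difference of the 5. PLEKHA4 went from 9.75 to 217 CPM with circ0003553 in PC3 and from 9.90 to 203 CPM with circ0004592. In DU145 it went from 25.1 to 11.03 CPM and from 24.8 to 10.6 CPM. Every circRNA library thus lay far from its control, above it in PC3 and below it in DU145, and the order of the lines was turned around: controls were higher in DU145 and circRNA libraries in PC3. The effect was 4.42 ± 0.11 in PC3 (log2 ± SE, n = 2 pairs; edgeR adjusted p = 2.27e-20) and -1.202 ± 0.10 in DU145 (adjusted p = 1.98e-07), and the line difference was 5.62 ± 0.15 (adjusted p = 9.03e-19).

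GBP3 (chromosome 1, 89006666 to 89022894), an interferon-inducible guanylate-binding GTPase, was high in PC3 controls and low in DU145. GBP3 went from 102 to 662 CPM with circ0003553 in PC3 and from 94.2 to 639.7 CPM with circ0004592, and in DU145 it went from 9.16 to 6.14 CPM and from 10.05 to 4.59 CPM. The 2 DU145 differences were unequal, -0.57 with circ0003553 and -1.12 with circ0004592, yet both circRNA libraries lay below both controls. The edgeR line difference was 3.56 ± 0.16 (log2 ± SE, adjusted p = 2.53e-14) and the DU145 effect -0.82 ± 0.13 (adjusted p = 0.0013). IFI35 (chromosome 17, 43006725 to 43014456), an interferon-induced leucine zipper protein, started at about the same level in both lines. IFI35 went from 9.61 to 120.2 CPM with circ0003553 in PC3 and from 9.20 to 122 CPM with circ0004592, and in DU145 it went from 10.1 to 6.76 CPM and from 9.92 to 6.97 CPM. Its effect was 3.69 ± 0.11 in PC3 and -0.55 ± 0.12 in DU145 (edgeR adjusted p = 1.15e-18 and 0.0161). The IFI35 call in DU145 was lost without either PC3 circRNA library. Its DU145 effect there stayed at -0.549 (log2), and what changed was the spread and the adjustment. The call was also lost without the DU145 control of the circ0003553 arm (effect -0.51) and on RPKM with limma (adjusted p = 0.236).

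NFATC2 (chromosome 20, 51386957 to 51562831), a transcription factor that calcineurin sends to the nucleus, moved the other way. NFATC2 went from 37.4 to 17.01 CPM with circ0003553 in PC3 and from 33.1 to 13.3 CPM with circ0004592. In DU145 it went from 10.1 to 16.4 CPM and from 9.61 to 17.9 CPM. The circRNA libraries of the lines therefore met at 13.3 to 17.9 CPM, from controls at 33.1 to 37.4 CPM in PC3 and 9.61 to 10.1 CPM in DU145. The line difference was -2.02 ± 0.16 (log2 ± SE; edgeR adjusted p = 1.78e-09), with -1.22 ± 0.11 in PC3 and 0.80 ± 0.12 in DU145 (adjusted p = 1.17e-08 and 0.000804). IL1RL1 (chromosome 2, 102311502 to 102352037), the receptor for interleukin 33, was the weakest of the 5. IL1RL1 went from 10.3 to 4.37 CPM with circ0003553 in PC3 and from 10.4 to 4.90 CPM with circ0004592, and in DU145 it went from 6.93 to 10.1 CPM and from 6.47 to 9.25 CPM. Its PC3 effect of -1.16 ± 0.15 passed (edgeR adjusted p = 2.94e-06), the DU145 effect of 0.53 ± 0.14 did not (adjusted p = 0.0812), and the line difference of -1.69 ± 0.21 did (adjusted p = 2.4e-06). IL1RL1 overlaps IL18R1 on the same strand, and the counting rule for shared exons is not given in the sources used here.

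**Figure D2:**
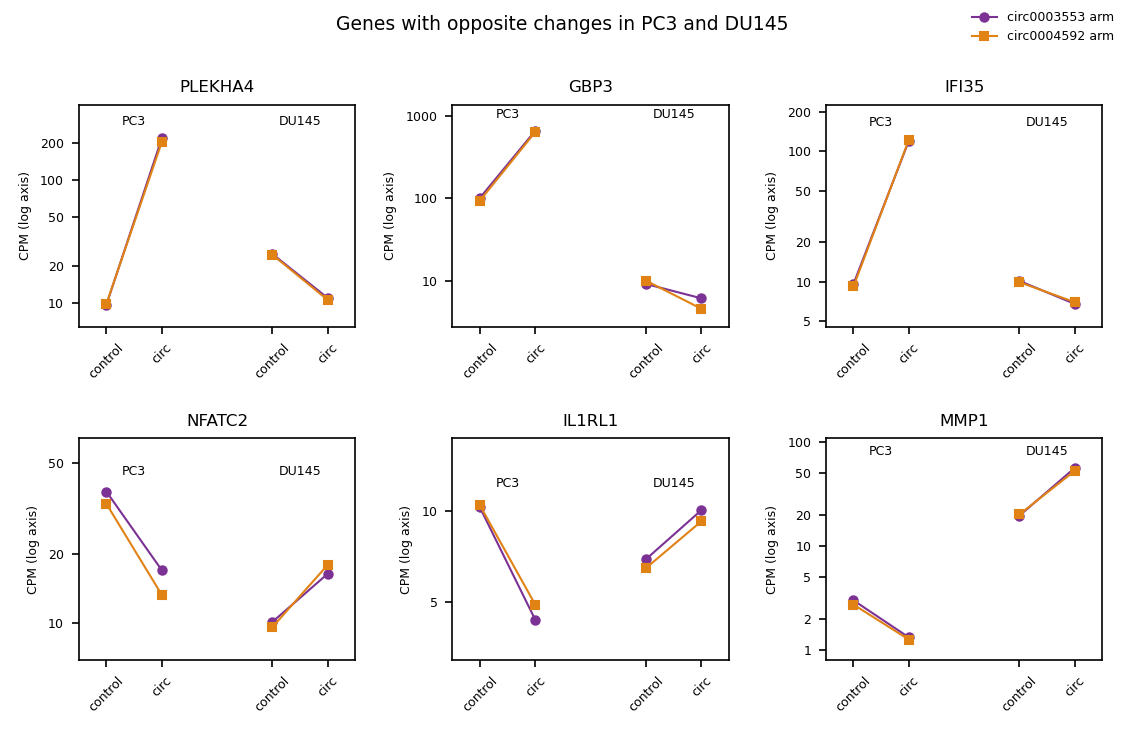
CPM (log axis) of the 5 genes with opposite changes and of MMP1, control and circRNA library joined by a line, PC3 on the left of each panel and DU145 on the right, circles for the circ0003553 arm and squares for the circ0004592 arm. PLEKHA4 rises from 9.75 and 9.90 CPM to 217 and 203 CPM in PC3 and falls from 25.1 and 24.8 CPM to 11.03 and 10.6 CPM in DU145, and NFATC2 falls in PC3 and rises in DU145.

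The sequence upstream of 4 of the 5 genes is shown (PLEKHA4 is named only) because interferon acts on genes through short elements close to the start site, and because 2 of the genes that fell in DU145 are interferon-inducible. Each is the 250 bases before the start in RefSeq (GRCh38.p14), 5′ to 3′ on the gene's strand, with capitals marking a match on either strand to GAAANNGAA, the core of the interferon-stimulated response element. DDX60 and IFI44, which rose in both lines and are described further on, are shown for comparison, as the 2 alike genes with a match. HDAC9, ITGA2, SNHG8, TGFB2-AS1 and TPM1 have a promoter in the table, with no match, and are not printed.
GBP3, chr1:89022867-89023116, minus strand: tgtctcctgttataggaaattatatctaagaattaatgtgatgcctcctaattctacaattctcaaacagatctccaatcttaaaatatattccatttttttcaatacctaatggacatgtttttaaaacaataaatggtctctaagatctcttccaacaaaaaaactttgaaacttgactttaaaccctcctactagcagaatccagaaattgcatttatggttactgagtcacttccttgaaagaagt
IFI35, chr17:43006534-43006783, plus strand: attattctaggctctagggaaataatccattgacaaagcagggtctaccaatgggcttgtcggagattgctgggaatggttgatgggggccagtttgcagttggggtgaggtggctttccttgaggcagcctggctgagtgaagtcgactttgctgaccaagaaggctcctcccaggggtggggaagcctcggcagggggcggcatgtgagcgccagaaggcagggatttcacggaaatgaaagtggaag
NFATC2, chr20:51562840-51563089, minus strand: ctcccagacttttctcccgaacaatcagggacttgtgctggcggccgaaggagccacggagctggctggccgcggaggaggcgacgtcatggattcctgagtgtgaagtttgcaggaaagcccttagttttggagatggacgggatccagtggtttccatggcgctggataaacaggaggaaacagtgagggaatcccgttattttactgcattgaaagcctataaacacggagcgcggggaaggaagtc
IL1RL1, chr2:102311313-102311562, plus strand: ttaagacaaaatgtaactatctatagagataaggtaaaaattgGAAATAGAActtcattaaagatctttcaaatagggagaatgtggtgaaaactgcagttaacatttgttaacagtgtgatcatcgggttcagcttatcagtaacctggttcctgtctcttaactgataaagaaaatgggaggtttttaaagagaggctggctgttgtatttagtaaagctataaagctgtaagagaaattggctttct
DDX60, chr4:168318753-168319002, minus strand: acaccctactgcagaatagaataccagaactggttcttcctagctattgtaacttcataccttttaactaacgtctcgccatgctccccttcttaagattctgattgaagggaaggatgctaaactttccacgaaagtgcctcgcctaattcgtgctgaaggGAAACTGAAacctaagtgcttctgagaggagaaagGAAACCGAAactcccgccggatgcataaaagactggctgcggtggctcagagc
IFI44, chr1:78649539-78649788, plus strand: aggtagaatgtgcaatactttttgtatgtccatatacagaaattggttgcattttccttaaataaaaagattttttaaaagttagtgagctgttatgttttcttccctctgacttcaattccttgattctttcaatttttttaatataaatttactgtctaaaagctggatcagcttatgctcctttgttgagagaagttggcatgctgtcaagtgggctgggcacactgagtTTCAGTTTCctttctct

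GBP3, IFI35 and NFATC2 have no match in this window, IL1RL1 has GAAATAGAA 199 bases from the start, DDX60 has GAAACTGAA at 80 and GAAACCGAA at 45 bases, and IFI44 has TTCAGTTTC, the same core on the other strand, at 9 bases. Over all tested genes with a promoter in the RefSeq table, 610 of 10903 (5.59%) held the core, as did 21 of 37 interferon-stimulated effectors (56.8%). GBP3 also has TGAGTCA, a match to the AP-1 site TGANTCA, at 17 bases, which 428 of 10903 promoters (3.93%) hold. A match is a string of letters and shows no binding, and a window without one says nothing of the factor.

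A wider set was the genes past the threshold in both lines, a count added after the data were seen. There were 95, of which 46 moved in opposite directions and 49 alike, where 20.8% of tested genes were called in PC3 and 1.07% in DU145. Of the 46, 16 rose in PC3 and fell in DU145 and 30 fell in PC3 and rose in DU145. All 46 passed for the line difference, where 11.8% of tested genes did. They were chosen on opposite calls in the same fit, so this is no separate support. Leaving out any 1 PC3 library gave 12 to 17 opposite and 25 or 26 alike, and leaving out any 1 DU145 library 179 to 291 and 202 to 279, so the count moved by over 1.5 times with each library. On the deposited RPKM with limma no gene passed in DU145, so none passed in both lines, although 1746 genes had an unadjusted p under 0.05 there (2019 with edgeR). Genes of the 95 named here beyond the fixed rule were chosen after their values were seen.

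**Figure D3:**
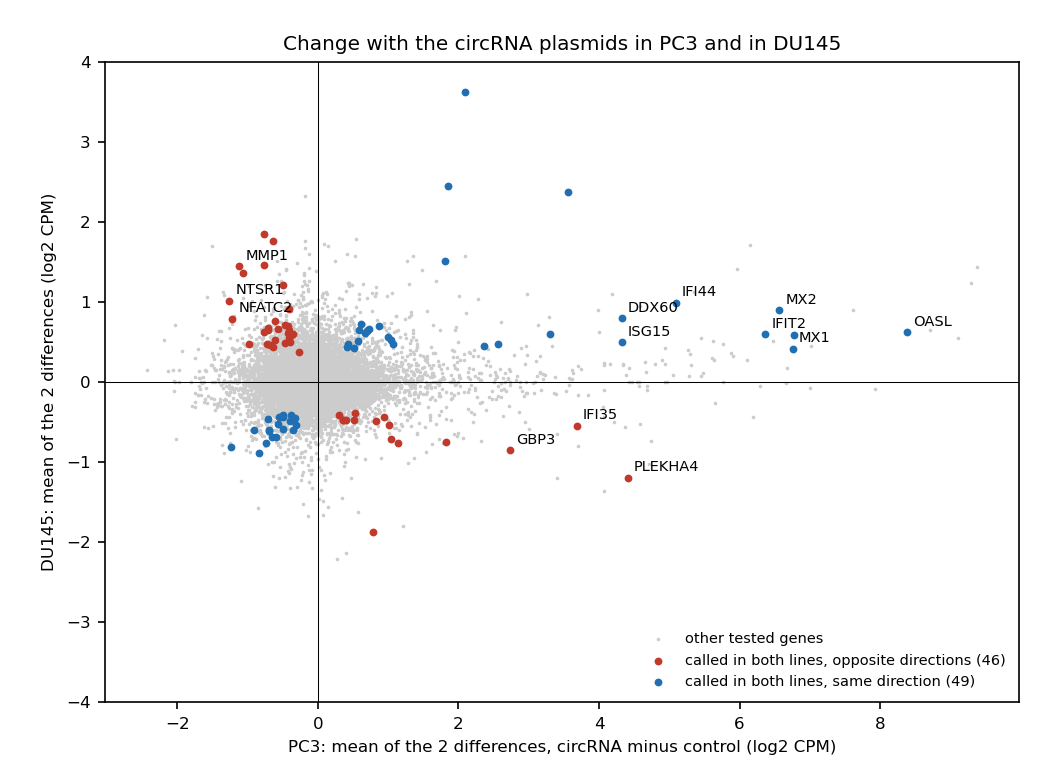
The mean of the 2 DU145 differences (vertical axis, log2 CPM) against the mean of the 2 PC3 differences (horizontal axis, log2 CPM) for 17869 tested genes, with the 46 genes called in opposite directions in red, the 49 called in the same direction in blue and the rest in grey. The vertical axis spans less than the horizontal one, and PLEKHA4, GBP3 and IFI35 stand below 0 at the right while OASL, MX1 and IFIT2 stand above it.

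Among the genes that fell in PC3 and rose in DU145, MMP1, the interstitial collagenase (chromosome 11, 102789920 to 102798160), was low in PC3 throughout. MMP1 went from 3.002 to 1.32 CPM with circ0003553 in PC3 and from 2.74 to 1.26 CPM with circ0004592, and in DU145 it went from 19.6 to 56.3 CPM and from 20.1 to 52.7 CPM. The edgeR line difference was -2.60 ± 0.22 (log2 ± SE, adjusted p = 3.18e-09). WTAPP1, a transcribed pseudogene on the other strand across MMP1, moved with it, with a line difference of -2.45, and without the strand setting of the counting their counts cannot be told apart. ADAM19 (-0.61 in PC3 and 0.53 in DU145, log2) and ADAM12 (-0.56 and 0.67) are membrane metalloproteinases of the same direction. The 20 tested matrix genes as a list gave 3 higher and 5 lower line differences, where 5.72% and 6.08% of all tested genes did. ESM1, a secreted proteoglycan, fell from 51.98 and 47.95 CPM to 29.4 and 29.4 CPM in PC3, and in DU145 went from 0.347 and 0.259 CPM to 1.004 and 0.852 CPM, a rise within a very low level.

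Signalling genes were also found in this direction. NTSR1, the neurotensin receptor, went from 70.9 to 26.7 and from 60.4 to 28.04 CPM in PC3, and in DU145 from 2.39 to 3.73 and 1.86 to 5.05 CPM. SPRY4 and DUSP4, feedback inhibitors of MAP kinase signalling, had line differences of -1.15 ± 0.14 and -0.97 ± 0.14 (log2 ± SE; edgeR adjusted p = 1.05e-06 and 2.24e-05). In PC3, SPRY4 was at 169 CPM in the circ0003553 control and 101 CPM with that plasmid, and at 154 and 99.6 CPM in the circ0004592 arm, and the DU145 libraries, in the same order, gave 15.7, 21.5, 14.5 and 20.2 CPM. Its circRNA libraries were lower than both controls in PC3 and higher than both in DU145. ODC1, the first enzyme of polyamine synthesis and an abundant message, fell from 866 and 860.0 CPM to 430.4 and 448 CPM in PC3. In DU145, ODC1 rose from 198 and 205 CPM to 279 and 283 CPM. MAPKAP1, the mTORC2 subunit SIN1, changed by -0.73 in PC3 and 0.47 in DU145 (log2), and GEM, a small GTPase, by -0.41 and 0.65. HSPA8, the constitutive Hsp70 chaperone, changed by -0.35 and 0.60, and AHNAK, a giant scaffold protein, by -0.63 and 0.44.

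Of the 46 genes, 6 were mitochondrial transfer RNAs, out of 22 such genes tested, where 0.257% of all tested genes were among the 46. They were MT-TT, MT-TG, MT-TL2, MT-TH, MT-TS2 and MT-TR, each lower in PC3 (-0.46 to -0.38 log2) and higher in DU145 (0.50 to 0.72). The PC3 arms were unequal in 5 of the 6, with -0.77 to -0.63 for circ0003553 and -0.19 to -0.13 for circ0004592, and MT-TT was the other one. MT-TT, for threonine, went from 48.3 to 34.7 and 50.9 to 39.4 CPM in PC3, and in DU145 from 19.1 to 29.6 and 18.4 to 31.7 CPM. MTATP8P1 and MTND1P23, nuclear copies of mitochondrial genes on chromosome 1, moved with them, and reads of such near-identical copies are uncertain. MT-RNR1, the small ribosomal RNA of the mitochondrion, rose in both lines instead (0.42 and 0.44, log2), in libraries from which ribosomal RNA had been removed.

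In the other direction, higher in PC3 and lower in DU145, the changes beyond PLEKHA4, GBP3 and IFI35 were smaller. SEMA3C, a secreted guidance cue, rose from 51.9 and 50.9 CPM to 93.6 and 89.7 CPM in PC3 and fell from 122 and 129 CPM to 94.5 and 85.9 CPM in DU145. STARD4, a cholesterol transfer protein, had a line difference of 1.55 ± 0.16 (log2 ± SE; edgeR adjusted p = 1.35e-07), with 1.02 in PC3 and -0.53 in DU145. An antisense gene overlaps STARD4, as AFAP1-AS1 does AFAP1, an actin-binding adaptor, and such pairs may share counts. AFAP1 and AFAP1-AS1 had line differences of 0.83 and 0.83. MTUS1, a microtubule-associated protein, changed by 0.95 and -0.44, and GADD45B, a stress-induced regulator of p38 kinase signalling, by 0.40 and -0.48. NEAT1, the long noncoding RNA of paraspeckles, changed by 0.30 and -0.41. In all, 12 of the 46 overlap a gene on the opposite strand, as do 12 of the 49 genes called alike. The share over all tested genes was not counted.

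Genes that moved alike at the 0.5 limit were 10: DDX60, HDAC9, IFI44, AP001610.5, ITGA2 and CH507-513H4.5, higher in both lines, and SNHG8, TGFB2-AS1, SHANK2 and TPM1, lower in both. All 10 passed for the mean effect, where 11.4% of tested genes did, and as above they were chosen on those differences. DDX60, IFI44 and AP001610.5 also passed for the line difference, with rises in PC3 many times those in DU145. For the other 7 the line difference did not pass, which does not show that the effects were equal.

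DDX60 (chromosome 4, 168216293 to 168318807), an antiviral helicase, and IFI44 (chromosome 1, 78649796 to 78664078), an interferon-induced protein, rose in all 4 pairs. DDX60 went from 10.5 to 204 CPM with circ0003553 in PC3 and from 8.91 to 187 CPM with circ0004592, and in DU145 it went from 5.30 to 10.02 CPM and from 4.77 to 7.73 CPM. Its edgeR effect was 4.33 ± 0.11 in PC3 and 0.82 ± 0.12 in DU145 (log2 ± SE, adjusted p = 4.56e-20 and 0.000804). IFI44 went from 11.5 to 397 CPM with circ0003553 in PC3 and from 12.02 to 407 CPM with circ0004592, and in DU145 it went from 3.71 to 9.66 CPM and from 4.74 to 7.30 CPM. The IFI44 line difference was 4.07 ± 0.19 (adjusted p = 3.05e-14 with edgeR). Both DU145 controls of IFI44 were under 5 CPM, so it reached the limit there through the circRNA libraries. AP001610.5 is a noncoding gene inside MX1 on the other strand, so its counts cannot be told apart from those of MX1. Its controls were under 5 CPM in both lines, so it too reached the limit through the circRNA libraries. Its DU145 effect missed the threshold without either PC3 control. That effect stayed at 0.59 (log2), and what changed was the spread and the adjustment. In both lines, the circRNA libraries of DDX60 and IFI44 lay above both controls.

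HDAC9 (chromosome 7, 18086949 to 19002416), a class IIa histone deacetylase, and ITGA2 (chromosome 5, 52989326 to 53094779), the collagen-binding integrin alpha 2, rose in both lines from different levels. HDAC9 went from 77.6 to 137 CPM with circ0003553 in PC3 and from 79.8 to 125 CPM with circ0004592, and in DU145 it went from 4.99 to 7.78 CPM and from 6.68 to 10.9 CPM. Its mean effect was 0.70 ± 0.075 (log2 ± SE, edgeR adjusted p = 2.11e-07) and its line difference 0.06 ± 0.15 (adjusted p = 0.864). ITGA2 went from 71.4 to 114 CPM with circ0003553 in PC3 and from 68.9 to 109.6 CPM with circ0004592, and in DU145 it went from 28.6 to 47.2 CPM and from 28.8 to 41.4 CPM. The ITGA2 mean effect was 0.65 ± 0.067 (adjusted p = 1.19e-07). CH507-513H4.5, a short unnamed transcript on chromosome 21 with a near neighbour of like name that moved with it (CH507-513H4.3), had a mean effect of 0.67 ± 0.068, and without the block of line and arm its DU145 adjusted p was 0.0536. How reads were shared between such neighbours is not given in the sources used here.

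SNHG8 (chromosome 4, 118278709 to 118279823), a noncoding host of a small nucleolar RNA, fell by about the same amount in every pair. SNHG8 went from 43.1 to 26.6 CPM with circ0003553 in PC3 and from 43.8 to 28.5 CPM with circ0004592, and in DU145 it went from 21.9 to 13.8 CPM and from 20.5 to 12.6 CPM. The 4 differences lay between -0.70 and -0.62 (log2), with an edgeR mean effect of -0.67 ± 0.075 (adjusted p = 3.97e-07). TPM1 (chromosome 15, 63042632 to 63071915), a tropomyosin of actin filaments, fell from 109 and 106 CPM to 75.9 and 68.8 CPM in PC3 and, in DU145, from 946 and 946 CPM to 663 and 652 CPM. SHANK2 (chromosome 11, 70467856 to 71252577), a scaffold protein of synapses and epithelia, had a mean effect of -0.65 ± 0.092 (edgeR adjusted p = 1.72e-05), and its DU145 effect missed the threshold with DESeq2 (adjusted p = 0.156) and without the DU145 control of the circ0003553 arm (0.0639). TGFB2-AS1 (chromosome 1, 218344196 to 218345678) starts beside TGFB2 on the other strand, and both fell. TGFB2, a ligand of the TGF-beta receptors, changed by -0.90 in PC3 and -0.60 in DU145, and TGFB2-AS1 by -0.83 and -0.89 (log2). In PC3, TPM1 missed the threshold without either library of the circ0004592 arm (edgeR adjusted p = 0.124 in both), as did TGFB2-AS1 (0.0758 and 0.077). The TGFB2 messages went from 18.9 to 12.1 and 18.9 to 8.42 CPM in PC3, while DU145 gave 32.7 to 23.4 and 38.6 to 23.4 CPM.

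**Figure D4:**
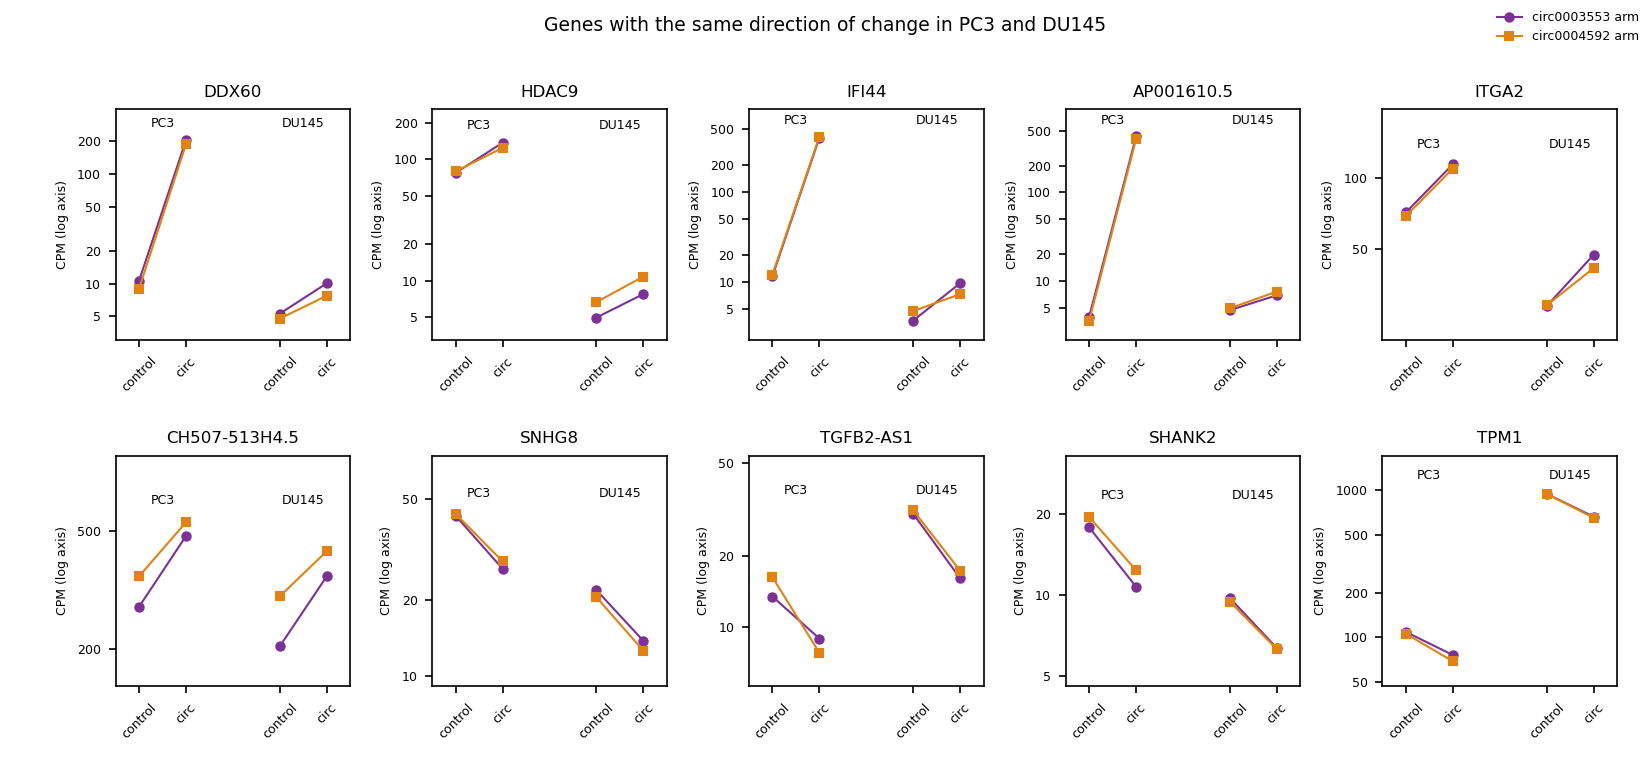
CPM (log axis) of the 10 genes that moved alike, control and circRNA library joined by a line, PC3 on the left of each panel and DU145 on the right, circles for the circ0003553 arm and squares for the circ0004592 arm. Lines run upward in both lines of cells for DDX60, HDAC9, IFI44, AP001610.5, ITGA2 and CH507-513H4.5 and downward for SNHG8, TGFB2-AS1, SHANK2 and TPM1.

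Of the 49 genes called alike in both lines, 28 rose and 21 fell, and 13 of those that rose were also called for the line difference. The 13 were larger in PC3 and were mostly interferon-stimulated genes: MX1, OASL, AP001610.5, IFIT2, ISG15, DDX60, IFI44, MX2, ISG20, IRF9 and IFI16, with CD68 and ATF3. ISG15, a ubiquitin-like modifier, went from 51.9 to 1003 and 54.95 to 1144 CPM in PC3, and in DU145 from 25.4 to 31.3 and 25.04 to 40.9 CPM. IRF9, a DNA-binding factor of interferon signalling, had effects of 2.56 ± 0.10 in PC3 and 0.48 ± 0.11 in DU145 (log2 ± SE, edgeR adjusted p = 4.1e-16 and 0.028). ATF3, a stress-induced transcription factor, lost its line difference in 8 of 16 alternative settings. Other rises in both lines, with no call for the line difference, were those of NT5E (the ectonucleotidase CD73, 1.003 in PC3 and 0.57 in DU145, log2), SQSTM1 (the autophagy receptor p62, 0.51 and 0.42), MUC1 (0.87 and 0.71) and GLDC, the glycine decarboxylase (0.58 and 0.52). AMH, a hormone of the TGF-beta family, was at 0 in both DU145 controls and at 0.348 and 0.152 CPM with the circRNAs, so no fold is given.

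Among the 21 that fell in both lines, 0 were called for the line difference with edgeR. Matrix and membrane genes were FN1, fibronectin (-0.50 in PC3 and -0.42 in DU145, log2), CAV1, the caveolar coat protein (-0.53 and -0.43), and CD24, a surface glycoprotein (-0.50 and -0.44). Lipid genes were SCD, the stearoyl-CoA desaturase (-0.56 and -0.44), and INSIG1, which holds the sterol sensor SCAP in the endoplasmic reticulum (-0.50 and -0.58). SCD went from 93.2 to 60.97 and 90.1 to 63.7 CPM in PC3, and in DU145 from 252 to 193 and 258 to 184 CPM. NNMT, which methylates nicotinamide, BHLHE40, a clock-linked repressor, and WWC1, an upstream member of the Hippo pathway, changed by -0.61, -0.69 and -0.48 in DU145 and by -0.71, -0.59 and -0.39 in PC3. The motif GAAANNGAA stood in 4 of the 18 promoters held for the 28 genes that rose alike (22.2%), in 0 of 17 of those that fell alike and in 0 of 22 of the 46 opposite genes, against 5.59% of all tested genes.

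The largest line differences were those of interferon-stimulated genes, which rose in PC3 far more than in DU145. At 5 CPM or more in each line, the 8 largest were OASL, MX1, AP001610.5, GBP1, IFIT2, PLEKHA4, IFIT3 and IFIH1. OASL, AP001610.5 and GBP1 were under 5 CPM in both PC3 controls, so they reached that level in PC3 through the circRNA libraries. OASL, of the oligoadenylate synthetase family, had 7.82 ± 0.21 (log2 ± SE; edgeR adjusted p = 1.04e-18). OASL went from 1.47 to 567 CPM with circ0003553 in PC3 and from 1.75 to 539 CPM with circ0004592, and in DU145 it went from 4.78 to 6.10 CPM and from 3.52 to 6.63 CPM. GBP1, a guanylate-binding GTPase like GBP3, was at 14.1 and 11.4 CPM in the DU145 controls and at 11.5 and 9.70 CPM with the circRNAs, an effect that did not pass (-0.26 ± 0.11, adjusted p = 0.334), while in PC3 it went from 3.72 and 3.16 CPM to 179 and 171 CPM. DDX58 (RIG-I) was at 20.7 and 21.2 CPM in DU145 controls and 10.6 and 10.6 CPM in PC3 controls. These are levels of 1 message, and a part of DDX58 in the line differences was not tested.

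At 5 CPM or more in each line, the 8 largest line differences in the other direction were ZMAT3, CLN8, NFATC2, TXNIP, KRT15, NT5DC2, SDC1 and IL1RL1. For ZMAT3, a p53-regulated RNA-binding protein, the change was in PC3. ZMAT3 went from 16.8 to 4.12 CPM with circ0003553 in PC3 and from 16.4 to 3.40 CPM with circ0004592, and in DU145 it went from 13.6 to 14.6 CPM and from 12.4 to 14.1 CPM, with a line difference of -2.29 ± 0.19 (log2 ± SE; edgeR adjusted p = 2.63e-09). KRT15, a basal keratin, and SDC1, the heparan sulfate proteoglycan syndecan-1, likewise fell in PC3 (-1.74 and -1.50) and had DU145 effects of 0.06 and 0.21 that did not pass (adjusted p = 0.901 and 0.388). CLN8, an endoplasmic reticulum cargo receptor, and NT5DC2, a nucleotidase-like protein, overlap opposite-strand genes, and had line differences of -2.06 and -1.75. TXNIP, the inhibitor of thioredoxin, was the reverse case, with its change in DU145. It was at 2.39 and 2.56 CPM in the DU145 controls and 9.77 and 7.48 CPM with the circRNAs, against 11.6, 10.6, 11.5 and 9.86 CPM in PC3. TXNIP thus reached 5 CPM in DU145 through the circRNA libraries. Its DU145 effect was 1.80 ± 0.17 (edgeR adjusted p = 6.42e-07).

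Gene lists were described by their counts, with no test of a list. Lists and members were chosen with earlier results of these data known, so the counts are no separate support. Of the 45 interferon-stimulated effectors, 45 had a higher circRNA effect in PC3 than in DU145 by the line difference, where 5.72% of tested genes did. Their median differences were 4.89 and 4.89 (log2) in PC3 and 0.27 and 0.12 in DU145, against -0.07, -0.04, 0.00 and 0.00 over all tested genes, and with members at 0 counts in a library set to a bound of 6 counts (3 read pairs) the median was 4.70 in PC3 with circ0004592 and the same in the others. In DU145, 7 passed upward, where 0.582% of genes did (IFI44, MX2, IFIT2, OASL, ISG20, ISG15 and MX1), and 1 downward, where 0.487% did (IFI35). MX1 was just inside the threshold there (edgeR adjusted p = 0.0486). The 7 became 4 with DESeq2 size factors and 0 on RPKM with limma, but 8 with DESeq2 as the tool and 11 with no filter. Leaving out any 1 library gave 42 to 45 such line differences. XAF1, a proapoptotic effector, had 0 counts in both PC3 controls and 26.2 and 31.9 CPM with the circRNAs, and 0.122 to 0.599 CPM in DU145. It passed the filter of 1 CPM in at least 2 libraries only through the PC3 circRNA libraries. Of the 45 effectors, 28 had a mean of at least 5 CPM in each line. ISG15, IFIT2, MX1 and XAF1 overlap annotated neighbours, so some of their counts may belong to those. All 17 genes of MHC class I and peptide loading were likewise higher by the line difference, led by NLRC5, their transactivator (4.65), and TAP1, a peptide transporter (3.57), with 0 past the threshold in DU145 and medians of -0.06 and 0.09 there. Leaving out 1 library gave 14 to 17. Of 13 RNA and DNA sensors 7 passed upward, and of 16 interferon signalling genes 7, among them IRF7 (3.04).

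Among apoptosis regulators, 10 of 23 were higher and 1 lower by the line difference, where 5.72% and 6.08% of all tested genes were, including the caspase CASP1 (4.23) and the BH3-only protein PMAIP1 (2.39), and 0 passed in DU145, where 0.582% of genes were higher and 0.487% lower. Cytokine and NF-kB genes gave, against the same shares, 6 higher and 2 lower of 22, and leaving out single libraries gave 4 to 11 higher. IL6 had 2.61 ± 0.29 (log2 ± SE; edgeR adjusted p = 4.98e-07) and the neutrophil chemokine CXCL5 -1.62 ± 0.22 (adjusted p = 1.2e-05). YAP and TEAD targets gave 8 higher and 0 lower of 24, with CTGF, a matricellular protein, at 1.04 and ANKRD1, a muscle ankyrin repeat protein, at 1.14. Their medians were 0.21 and 0.19 in PC3 and -0.18 and -0.04 in DU145. Leaving out a PC3 library gave 4 or 5 of these, and leaving out a DU145 library 10 to 14.

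Lists with many circRNA effects lower in PC3 than in DU145 were those of mitochondrial messages, ribosomal proteins and MAP kinase feedback. Of all tested genes, 6.08% had a lower effect in PC3 by the line difference. All 13 mitochondrially encoded messages passed downward for the line difference. In DU145 0 passed, where 0.582% of all tested genes were higher and 0.487% lower. Most passed upward there without the control or the circRNA library of the circ0004592 arm in DU145, fits that hold only the circ0003553 pair of that line. With no filter on low counts 6 passed upward, where 303 genes passed in DU145 in all. MT-CYB, cytochrome b, went from 2509 to 1206 and 2423 to 1542 CPM in PC3, and in DU145 from 1761 to 2407 and 1994 to 2038 CPM. The medians were -0.83 and -0.45 in PC3 and 0.47 and 0.07 in DU145, so the arms differed, with larger changes of either sign in the circ0003553 arm. The count was 1 without the PC3 control of the circ0003553 arm and 3 without its circRNA library, and 13 in the other fits that left out a library. On RPKM with limma 0 passed, where 1055 genes did in all and 4013 had an unadjusted p under 0.05. Of 40 cytosolic ribosomal proteins 23 passed downward, led by RPL7 (-0.77) and RPL6 (-0.77), with medians of -0.38 and -0.35 in PC3 and 0.03 and 0.10 in DU145. Leaving out any 1 PC3 library gave 1 or 2, DESeq2 size factors gave 15, and leaving out a DU145 library 25 to 36. Of 22 MAP kinase feedback genes and targets 11 passed downward and 0 upward, including the EGF receptor ligands HBEGF (-1.12) and TGFA (-0.99) as well as SPRY4 and DUSP4. Their medians were -0.28 and -0.30 in PC3 and 0.15 and 0.19 in DU145, and leaving out a PC3 library gave 4 to 8 calls.

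In the lipid synthesis lists more genes passed for the mean effect than for the line difference. Of 23 cholesterol genes, 10 fell by the mean effect, where 5.70% of tested genes did, and 0 rose, while 2 were higher and 1 lower by the line difference. The medians were -0.28, -0.15, -0.25 and -0.16 in the 4 differences, each below that of all tested genes. Of 15 fatty acid genes 7 fell by the mean effect and 0 rose. HMGCS1, which makes the precursor of mevalonate, differed between the lines (0.49 ± 0.13, log2 ± SE; edgeR adjusted p = 0.017), at 195 to 161 and 206 to 141 CPM in DU145 against 68.8 to 68.97 and 66.3 to 73.7 CPM in PC3, and this difference missed the threshold in 5 of 16 alternative settings. Leaving out any 1 PC3 library gave 1 to 3 cholesterol genes and 3 fatty acid genes past the threshold, and leaving out any 1 DU145 library 9 to 13 and 7 or 8.

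**Figure D5:**
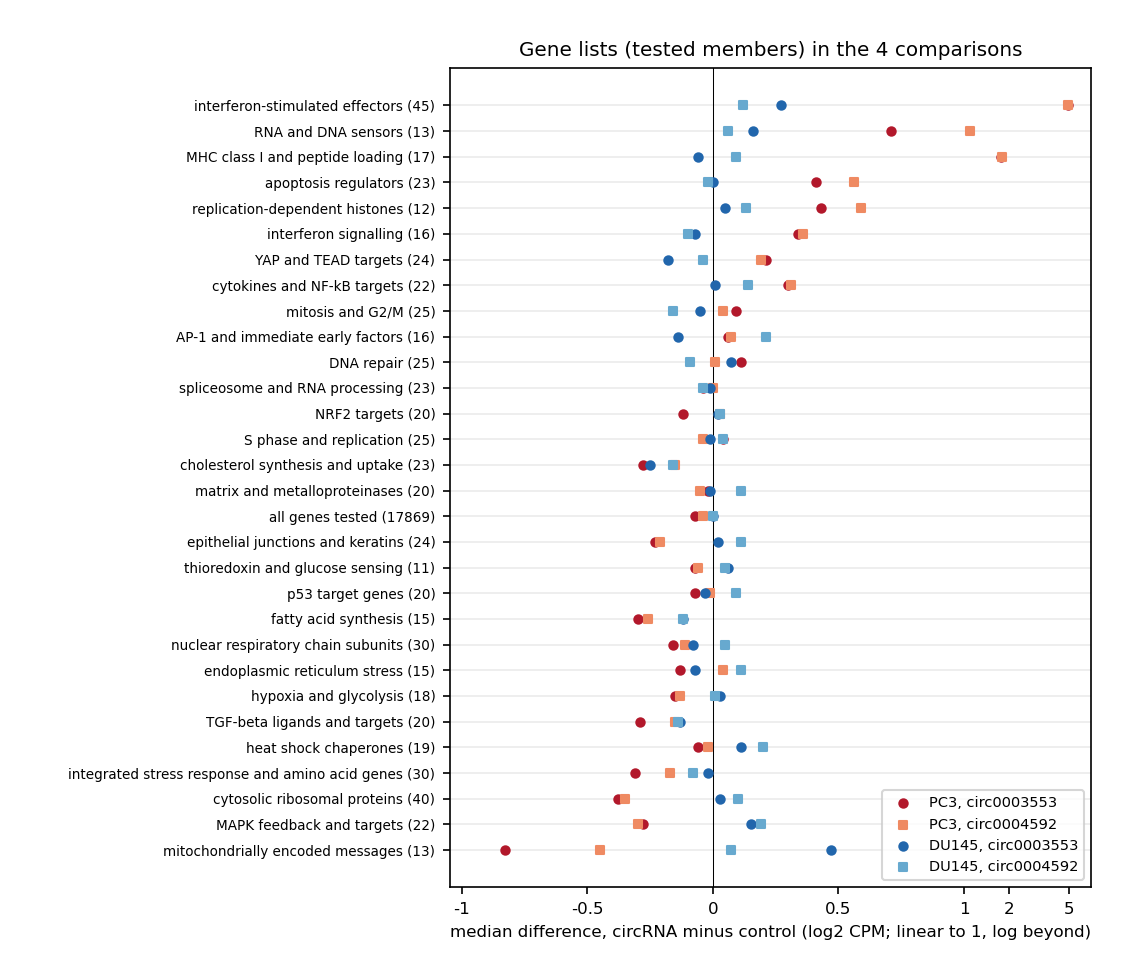
Median log2 CPM difference of the tested members of 29 gene lists and of all tested genes (number of genes in brackets), 1 point per line and circRNA, on an axis that is linear to 1 and logarithmic beyond. PC3 points (reds) stand at 4.89 for interferon-stimulated effectors and at -0.83 and -0.45 for mitochondrial messages, while most DU145 points (blues) stay near 0.

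The opposite changes were compared with the control levels of the lines. Of the 30 genes lower in PC3 and higher in DU145, 25 had the higher control level in PC3, and of the 16 in the other direction 4 did. In the circRNA libraries the lines stood closer together than in the controls for 27 of the 46 and farther apart for 19. For 17 their order was turned around, as for PLEKHA4, a count that takes in any control gap, however small. IFI35 is among the 17, with nearly equal control means of 9.40 CPM in PC3 and 10.03 CPM in DU145. The shares that came closer, moved apart or turned around were not counted over all tested genes. The control level was higher in PC3 for 51.7% of all tested genes. Over genes at 5 CPM or more in each line, it was higher in PC3 for 602 of the 853 with a line difference below 0 (70.6%), for 312 of the 760 above 0 (41.1%) and for 52.6% of all. Each control library stands on both sides of this count, in the level and in the difference, so an error in a control moves both, and its part was not tested.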

How the data were processed

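RNA was measured by sequencing in 8 libraries, 1 for each combination of line (PC3, DU145), arm (circ0003553, circ0004592) and plasmid (circRNA, control). Per the labels' protocols, total RNA was depleted of ribosomal RNA and made into stranded libraries with molecular identifiers. Per the submitters' processing notes, Trimmomatic 0.36, featureCounts (Subread 1.5.1), edgeR 3.12.1 and hg38 were used. Which aligner and annotation were used, whether counting was by strand, and whether identifiers were collapsed is not given in the sources used here. The deposited counts are whole-number counts per gene, and of counts from 1 to 20 between 64.9% and 66.1% were even, so a read pair may often count as 2. The deposited RPKM, made by the authors from the same counts, gene length and library total, served as an alternative only.

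Counts of both arms were joined by gene. The tables list 36779 genes, 31268 of them in both, and a gene in 1 table was given 0 in the other. Genes with at least 1 CPM in at least 2 libraries (17869) were fitted with edgeR 4.0.16 (R 4.3.3; quasi-likelihood test, TMM) on 4 blocks of line and arm and a circRNA effect per line, with 2 residual degrees of freedom among samples. P-values were adjusted by Benjamini-Hochberg over all tested genes, with a threshold of 0.05, and the standard error was worked back from the F statistic. Log2 CPM differences used a prior count of 2.

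Pairs come from the titles, which give line and arm. Deviations of the arms in the control and circRNA libraries correlated at 0.13 in PC3 and -0.12 in DU145 over 10664 genes, so the block holds by design and not by this check. The 2 controls of a line differed beyond counting noise (chi-square per degree of freedom 5.57 in PC3 and 6.31 in DU145, 2.79 and 3.15 with 2 counts per read pair), so each was kept as a library.

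Genes were named by a rule: per direction, the 12 opposite and the 12 alike genes with the largest smallest difference, the 8 largest called line differences at 5 CPM in each line, up to 4 called members of each of 29 gene lists, and RCAN3, STK3, PLEKHA4 and MMP1. The members, the lists and the rule were chosen with earlier results of these data known. Counts of genes called in both lines were added after the data were seen. Alternatives were DESeq2 1.42.0, its size factors, total counts, limma 3.58.1 on log2(RPKM + 0.1), other filters, limits and prior counts, no block, 6 groups, and each library left out. A library left out takes its pair out of the fit, so these are not separate checks of each library. P-values measure only the spread between these libraries, and each line is 1 cell line.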

Additional observations from a re-analysis of the deposited data

Results flagged for a closer look

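The circRNA effect differed between PC3 and DU145 by a test of the difference itself (edgeR's quasi-likelihood test, adjusted p under 0.05) for 21 genes described above. The line difference, PC3 minus DU145 in log2, was above 0 for OASL (7.82), MX1 (6.34), AP001610.5 (6.20), GBP1 (5.93), IFIT2 (5.75), PLEKHA4 (5.62), IFIT3 (5.52), IFIH1 (5.36), IFI35 (4.24), IFI44 (4.07), GBP3 (3.56) and DDX60 (3.51). In PLEKHA4, GBP3 and IFI35 the 2 lines moved in opposite directions, and in OASL, MX1, AP001610.5, IFIT2, IFI44 and DDX60 both rose. The DU145 rise of MX1 was just inside the threshold (edgeR adjusted p = 0.0486).

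It was below 0 for MMP1 (-2.60), ZMAT3 (-2.29), CLN8 (-2.06), NFATC2 (-2.02), TXNIP (-1.98), KRT15 (-1.81), NT5DC2 (-1.75), SDC1 (-1.71) and IL1RL1 (-1.69). MMP1 and NFATC2 passed in both lines in opposite directions, and TXNIP passed in DU145 alone. These genes were chosen for their differences.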

How the results depend on the processing

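The counts moved with the tool, the scaling, the filter and the libraries used, and the balance of higher and lower line differences turned with DESeq2 size factors (1106 higher and 752 lower, against 1023 and 1086). Of 119 named results with a test, 0 changed direction, 70 kept their call in every alternative and 49 lost it in at least 1. PLEKHA4, GBP3, IFI35, NFATC2, IL1RL1 and MMP1 kept their line difference in all 16 alternatives. With DESeq2 as the tool, 1296 genes passed for the line difference (2109 in the report; 61.6% against 48.5% of them higher in PC3), 1187 for the mean effect (2043), 2165 in PC3 (3709), 110 in DU145 (191) and 25 in both lines in opposite directions (46). On RPKM with limma these were 1055, 1001, 2226, 0 and 0, with 0 called alike (49). The smallest DU145 adjusted p there was 0.0945. With the spread taken from the controls (6 groups) they were 4428, 4623, 6345, 1442, 388 and 402. DU145 gave 125 genes with DESeq2 size factors and 303 with no filter. Leaving out single libraries gave 856 to 3404 line differences, 808 to 3436 mean effects, 1206 to 5781 genes in PC3, 126 to 1069 in DU145, 12 to 291 opposite and 25 to 279 alike in both lines. The 5 genes past the limit in opposite directions became 56 at a limit of 0.25, 1 at a limit of 1, 14 at 1 CPM, 0 at 20 CPM, 3 with a prior count of 10 and 5 to 22 without single libraries. The 10 alike became 82, 0, 21 and 3 at the same limits of change and level, and 10 to 29 without single libraries. These causes were not tested.

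Without the replicate block of line and arm, 2251 genes passed for the line difference, and of the 15 genes past the limit CH507-513H4.5 lost its DU145 call. Genes under 5 CPM, a limit chosen here, rest on fewer counts, among them MMP1 in PC3.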

Other observations

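Other lists also held line differences, where 5.72% of all tested genes were higher in PC3 and 6.08% lower. Of 20 tested matrix and metalloproteinase genes, 3 were higher and 5 lower by edgeR's quasi-likelihood test, and leaving out any 1 PC3 library gave 2 and 2. MMP13, collagenase 3, had a line difference of 3.56 (log2; adjusted p = 5.13e-08), opposite in sign to that of MMP1, with a PC3 effect of 3.72 from a control mean of 2.60 CPM. COL13A1, a membrane collagen, had -0.95 (adjusted p = 8.66e-06).

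Of 25 DNA repair genes, 5 were higher and 1 lower. BRIP1, a helicase of the Fanconi pathway, had 1.16 and the checkpoint kinase CHEK2 1.15 (edgeR adjusted p = 1.44e-05 and 7.34e-05), and leaving out a PC3 library gave 2 or 3 higher genes, leaving out a DU145 library 6 to 10. Of 24 junction and keratin genes, 2 were higher and 6 lower, and leaving out any 1 PC3 library gave 2 lower. DSP, the desmosomal protein desmoplakin, had 0.98, and the keratin KRT19 had -1.17. Of 19 heat shock chaperones, 2 were higher and 4 lower (2 lower without any 1 PC3 library, and with DESeq2), with DNAJA1, an Hsp70 cofactor, at 0.86 and BAG3, another Hsp70 cofactor, at -1.05. DDIT4, an inhibitor of mTORC1, was among the integrated stress genes (2 higher and 6 lower of 30, but 0 lower with DESeq2 and 0 or 1 without any 1 PC3 library) and fell in DU145 (-0.42, edgeR adjusted p = 0.0262), with a PC3 effect of 0.20 that did not pass (adjusted p = 0.16).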
